A study of Oryza sativa with 16 samples.

Results

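The probe sets described here are those whose signal stood higher in late than in early rice seed. On the Affymetrix GeneChip Rice Genome array, 300 of 57194 probe sets were selected on their measured signals after 187 control probe sets had been removed. The choice used 8 arrays of untreated Zhonghua 11 (ZH) seeds, and the gap of a probe set was its lowest log2(signal + 16) on the 4 arrays of 10 and 12 days after fertilization (DAF) minus its highest value on the 4 arrays of 4 and 6 DAF. A gap of at least 1, or 2-fold, was met by 357 probe sets, which is 0.624% of all, and the 300 with the largest gap were kept. Their height in late and their low level in early untreated ZH seed are therefore given by the choice, are reported as a description, and were not tested.

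The study compared the low temperature response of seeds of 2 japonica cultivars, ZH (sensitive) and Hanfeng (HF, tolerant). Whole plants were grown at 28/22°C by day and night, and some were moved to 14°C for 2 days. There were 8 groups of 2 biological replicates each, 16 arrays in all. In ZH 10D-2DC, ZH seeds of 10 DAF had the 2 days at 14°C, in HF 4D-2DC and ZH 4D-2DC the low temperature began at 4 DAF, HF 4D was untreated HF seed of 4 DAF, and the untreated ZH seeds of 4, 6, 10 and 12 DAF are called ZH 4D, ZH 6D, ZH 10D and, for the oldest, ZH 12D. A seed sampled after the treatment was 2 days older than at its start, so that HF 4D-2DC differed from HF 4D in age and in temperature, and no untreated HF seed of 6 DAF was analysed here. The tissue is the seed as a whole, and the sources do not say how many plants or seeds were pooled for a sample. P-values measure only the spread between these samples. In whole seeds, more cells of a type and more RNA per cell cannot be told apart.

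In the second phase of its development a cereal seed stops dividing, fills its endosperm with starch and storage protein, and prepares the embryo and the aleurone layer for drying. Abscisic acid (ABA) drives much of this phase, and the genes it switches on encode late embryogenesis abundant (LEA) proteins and dehydrins, which protect membranes and proteins as water is lost, as well as inhibitors of proteases and amylases and enzymes that are kept for germination. Many of these genes also answer to drought and cold in vegetative tissue.

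The array annotation gave 1 gene for 214 of the 300 probe sets, several genes for 1 and none for 85. The 214 belonged to 203 genes, of which 51 have a name and the others only an identifier, and 11 genes were represented by more than 1 of the probe sets. A gene was annotated for 71.3% of the members and for 39.2% of all probe sets. Among the members, 62 (20.7%) had an identifier ending in _s_at or _x_at, which marks probes that can bind related transcripts, against 17.4% of all probe sets. Genes that followed each other in the RefSeq gene order were pinA and RBBI3.3, the dehydrin genes RAB16C, RAB16B and RAB21, LOC4330372 and LOC4330375, and LOC9267086 and PXG. Signals of the 3 RAB16-type dehydrin genes may include each other's transcripts, because their sequences are alike.

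At the edge of the choice the gap was 1.13 for 4CL2, the last probe set kept, and also 1.13 for the first probe set left out, for which no gene was given. On the log2 scale 4CL2 had 8.53 as its lowest late and 7.40 as its highest early value, and the probe set just outside 9.43 and 8.30. The median gap of the members was 1.75. The largest, 5.20, belonged to a probe set with no annotated gene, and its signal was 161 and 144 in ZH 4D, 368 and 644 in ZH 6D, 24299.9 and 32128 in ZH 10D and 48448 and 30151 in ZH 12D. In the groups that the choice did not use, the same probe set had signals of 38254 and 28266 in ZH 10D-2DC, 77.6 and 330.1 in HF 4D-2DC, 312 and 76.9 in HF 4D and 494 and 291 in ZH 4D-2DC. Every array of ZH 10D-2DC was thus in the range of late untreated seed, and every array of the other 3 groups below it.

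In untreated ZH seed the median level of the 300 probe sets was 6.63 at 4 DAF, 8.09 at 6 DAF, 11.0 at 10 DAF and 11.6 at 12 DAF, on the log2(signal + 16) scale. The choice itself placed a step between 6 and 10 DAF. A higher mean at 6 than at 4 DAF was seen for 242 members, and for 66 it was over 2 log2 units higher. Both arrays of 6 DAF lay above both of 4 DAF for 150 members and below for 9, against 10.1% and 11.7% of all probe sets. RA17, which encodes a seed allergenic albumin of the amylase and trypsin inhibitor family, and Osem, an Em-type LEA gene, were among the 66, with differences of 5.15 and 4.09 (ZH 6D − ZH 4D). A higher mean at 12 than at 10 DAF was seen for 246 members, with a median difference of 0.44 over the 300, and 89 had both arrays above and 10 below, against 10.5% and 10.6% of all. With late means of at least 14, 29 probe sets were among the brightest of the array, while 26 had a late mean under 8.

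**Figure D1:**
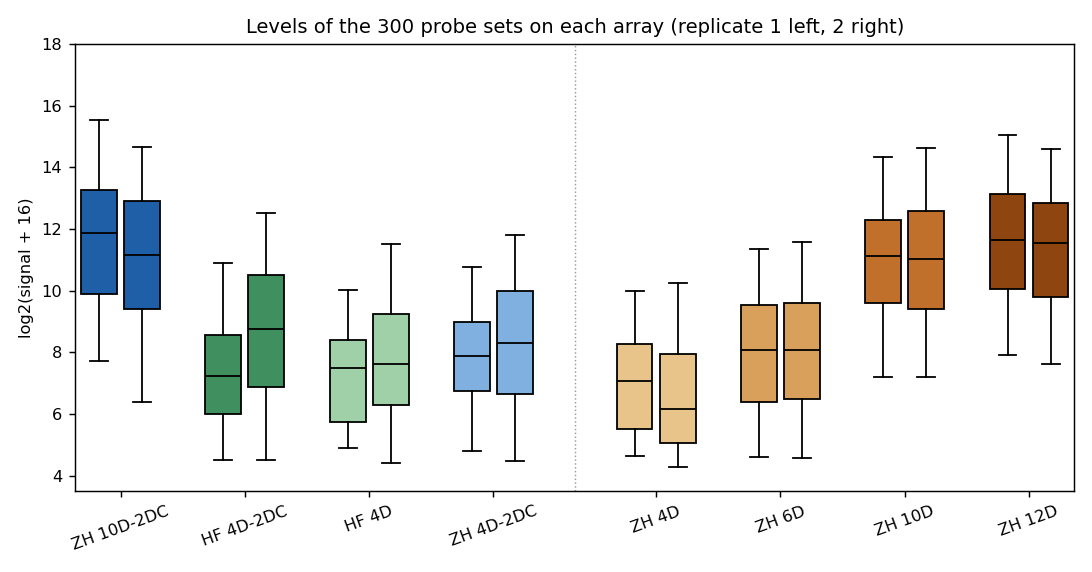
Log2(signal + 16) of the 300 probe sets on each of the 16 arrays, with the median (line), quartiles (box) and 5th to 95th percentile (whiskers); replicate 1 stands left of replicate 2, the groups not used for the choice stand left of the dotted line and the untreated ZH series right of it. The medians of ZH 10D-2DC, 11.9 and 11.2, lie with those of 10 and 12 DAF, and those of HF 4D-2DC, 7.23 and 8.75, lie far apart.

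The arrays differed in ways that touch these values. Arrays of replicate 1 had median signals between 85.9 and 172, and arrays of replicate 2 had lower ones, between 49.8 and 60.1. Markers of the seed tissues were checked with the brightest probe set of each gene, and no marker was listed at 0. The summed signal of 8 genes of green tissue, such as those of chlorophyll a/b-binding proteins, was 2278 to 4271 on replicate 1 and 26989.5 to 63542 on replicate 2 of ZH 10D-2DC, ZH 10D and ZH 12D, and 10151 to 82666 on the other arrays, with the highest values in HF 4D. Late seed of replicate 1 thus had far less green tissue signal than late seed of replicate 2. The sum of 9 endosperm genes, among them the glutelins and the granule-bound starch synthase, was 37329 and 191317 in HF 4D, 252199 and 12353 in ZH 4D and at least 141708 in every other group. The sum of 14 genes of dividing tissue, such as the MCM helicase subunits, was 2583 to 6775 in ZH 10D-2DC, ZH 10D and ZH 12D and 11276 to 29491 elsewhere. Of 6 embryo and aleurone markers 5 are themselves members, so that they are no separate check of the label. Which part these differences between samples have in the results below was not tested.

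The first question was whether seed that spent 2 days at 14°C still showed the age difference by which the probe sets were chosen, which ZH 10D-2DC and ZH 4D-2DC answer with arrays that the choice did not use. It did, and by nearly the whole list. The median difference over the 300 probe sets was 3.19 log2 units (ZH 10D-2DC − ZH 4D-2DC), a 9.16-fold higher signal, against 0.09 over all probe sets. It was 3.87 within replicate 1 and 2.62 within replicate 2. For 277 members both ZH 10D-2DC arrays stood above both ZH 4D-2DC arrays, and for none below, where 15.8% of all probe sets stood above and 13.5% below. The one negative difference, -0.51, was that of a probe set with no annotated gene, with signals of 238 and 4.79 in ZH 10D-2DC and 105 and 72.2 in ZH 4D-2DC.

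A low-value filter, on the mean over all 16 arrays, passed 288 of the 300 members, and it passed them also through the late groups. The 12 left untested were dim and included BGLU16, a beta-glucosidase gene, and STLP3. With limma, 243 of these 288 were higher in ZH 10D-2DC at the limits that the study's methods name, p under 0.05 and over 2-fold, and none was lower. The methods do not say whether that p was adjusted, and the unadjusted p was used here. Of all 34316 probe sets tested, 3.54% were higher and 3.05% lower. No member passed a Benjamini-Hochberg adjusted p of 0.05 (0% of all passed), the smallest being 0.0638. When the replicate number was entered as a block, 63 members passed it, as did 0.265% of all probe sets in that direction. At the threshold of the methods the block gave 258 higher and none lower, where all probe sets gave 6.41% and 6.27%. Without the filter 247 of all 300 were called. Since the spread was shared with the arrays of the choice, the fit was repeated on the 4 arrays compared, and 237 were called. For the fit without the filter and the fit on 4 arrays, the share of all probe sets is not given here.

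**Figure D2:**
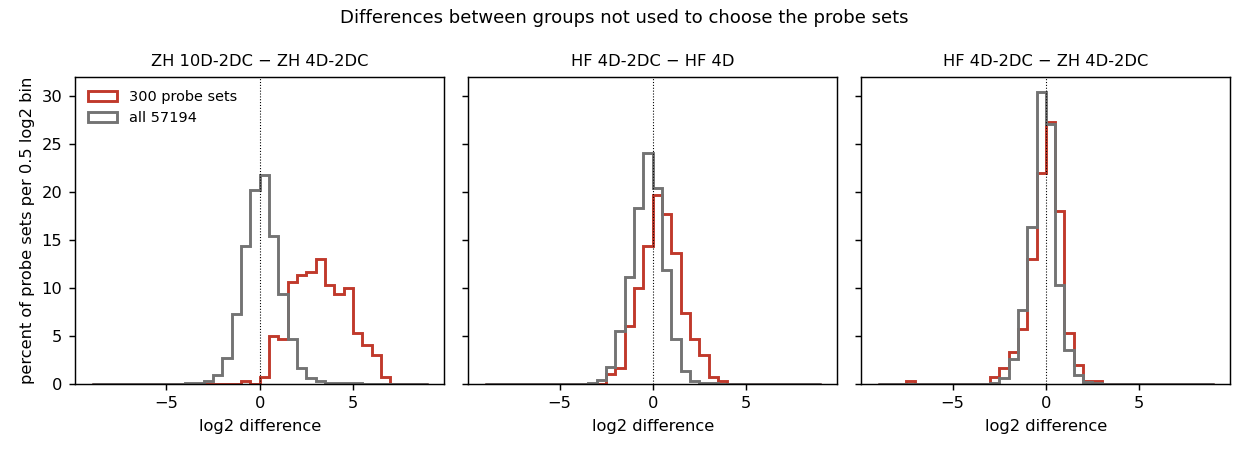
Percent of probe sets per bin of 0.5 log2 units of the difference between group means, for the 300 members (red) and for all probe sets (grey), in the 3 comparisons between groups not used for the choice. Members lie around 3.19 in ZH 10D-2DC − ZH 4D-2DC, against 0.09 for all, around 0.43 in HF 4D-2DC − HF 4D, against -0.23, and around 0.06 in HF 4D-2DC − ZH 4D-2DC, against -0.11.

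LEA and dehydrin genes carried some of the largest differences. Of 9 genes found on the array under such names, with the membrane protein gene PM19L counted among them, 7 are members. These 7 were all called higher in ZH 10D-2DC than in ZH 4D-2DC. The median difference over the 9 was 5.11. RAB16B, a dehydrin, had signals of 15790.5 and 14275 in ZH 10D-2DC, 97.0 and 942 in HF 4D-2DC, 93.0 and 145 in HF 4D and 267 and 298 in ZH 4D-2DC. In untreated ZH seed it had 113 and 50.8 in ZH 4D, 533 and 181 in ZH 6D, 4194 and 6064 in ZH 10D and 7853 and 7182 in ZH 12D. Both arrays of ZH 10D-2DC lay above all other 14 arrays, and the difference from ZH 4D-2DC was 5.65 ± 0.88 log2 units (standard error; limma, adjusted p = 0.0638).

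RAB16C, its neighbour in the genome, gave signals of 6393 and 12119 in ZH 10D-2DC, 244 and 398 in HF 4D-2DC, 274 and 119 in HF 4D and 199.9 and 52.5 in ZH 4D-2DC. At normal temperature the ZH values were 129.8 and 7.43 in ZH 4D, 188 and 209 in ZH 6D, 1383 and 2940.2 in ZH 10D and 2451 and 3151 in ZH 12D. Here too ZH 10D-2DC was above every other array, and its difference from ZH 4D-2DC was 6.18 ± 0.89 log2 units (standard error; limma, adjusted p = 0.0638). RAB21, the third gene of the run and a dehydrin gene as well, was read by a pair of member probe sets. The brighter of them measured 159587 and 41885 in ZH 10D-2DC, 90.0 and 13084 in HF 4D-2DC, 315 and 503 in HF 4D and 2048 and 2709.8 in ZH 4D-2DC. Its untreated ZH series ran 113 and 5.36 in ZH 4D, 4735 and 577 in ZH 6D, 38918 and 32987 in ZH 10D and 92578 and 34816 in ZH 12D. The groups of 10 DAF or later did not overlap with the others, and the HF 4D-2DC arrays lay far apart.

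PM19L, a membrane protein gene of the AWPM-19 family, had 38562 and 24596 in ZH 10D-2DC, 85.3 and 719 in HF 4D-2DC, 27.6 and 229 in HF 4D and 425 and 705 in ZH 4D-2DC. In untreated ZH seed its signal was 118 and 63.9 in ZH 4D, 471 and 187 in ZH 6D, 4040.4 and 4694 in ZH 10D and 16189.8 and 8093 in ZH 12D. It stood above all late untreated arrays in ZH 10D-2DC, and its difference from ZH 4D-2DC was 5.77 ± 0.99 log2 units (standard error; limma, adjusted p = 0.0723). LEA19, a LEA gene, had 33548 and 20603 in ZH 10D-2DC, 1167 and 11312 in HF 4D-2DC, 453 and 4229 in HF 4D and 1240.2 and 5007 in ZH 4D-2DC. In the 3 younger groups replicate 2 was well above replicate 1 for this gene. Osem had 85759 and 38068 in ZH 10D-2DC, 3261 and 17571 in HF 4D-2DC, 446 and 3866 in HF 4D and 2220.2 and 10998 in ZH 4D-2DC, and rab25 had 34832 and 19427 in ZH 10D-2DC, 153 and 3136 in HF 4D-2DC, 242 and 185 in HF 4D and 315 and 572 in ZH 4D-2DC. For both genes the ZH 10D-2DC arrays lay above those of the 3 other groups.

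**Figure D3:**
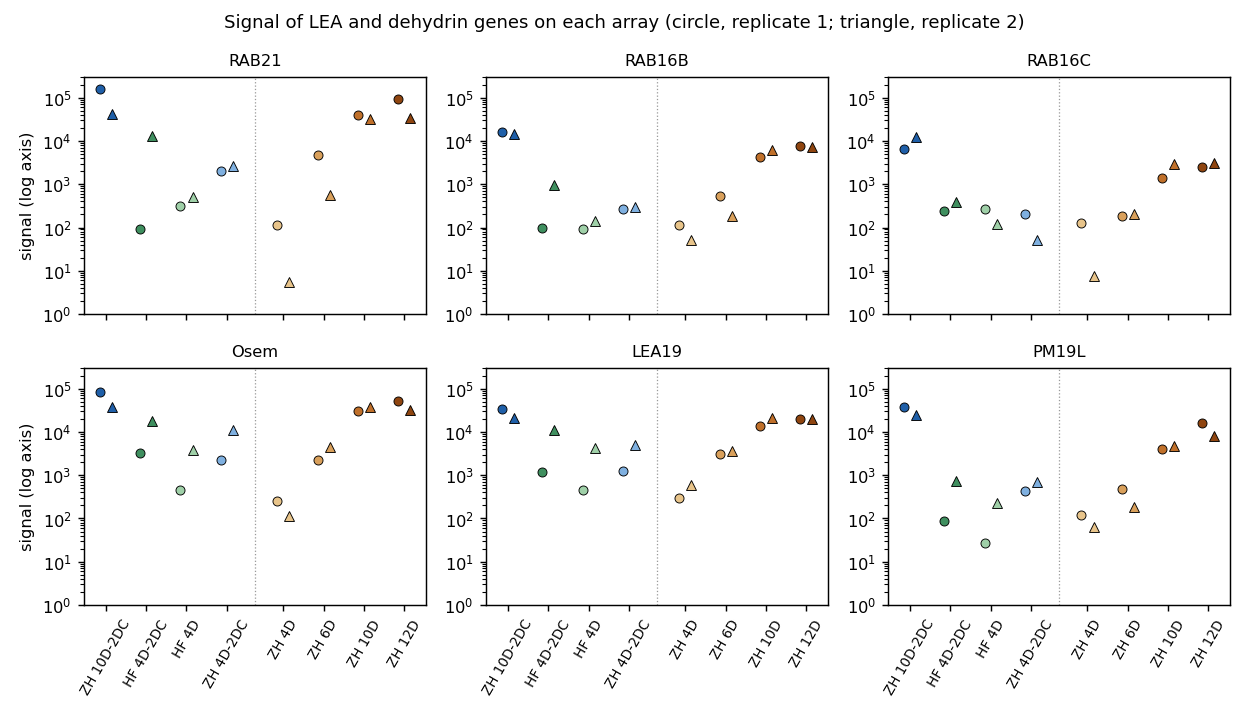
Signal (log axis) of LEA and dehydrin genes and of the membrane protein gene PM19L on each array, replicate 1 as a circle and replicate 2 as a triangle, with the groups not used for the choice left of the dotted line. All 6 genes are high in ZH 10D-2DC, ZH 10D and ZH 12D, and the HF 4D-2DC replicates lie apart, at 90.0 and 13084 for RAB21.

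Seed albumin, inhibitor and lectin genes were also among the members. RBBI3.3 encodes a Bowman-Birk trypsin inhibitor, and its signals were 50173 and 28819 in ZH 10D-2DC, 247 and 4721 in HF 4D-2DC, 889.9 and 1557 in HF 4D and 592 and 1124 in ZH 4D-2DC, against 140.2 and 409 in ZH 4D, 1479.6 and 768 in ZH 6D, 23340.4 and 30355 in ZH 10D and 48972 and 28718 in ZH 12D in the untreated series. RASI, whose product inhibits both alpha-amylase and subtilisin, had 47231 and 12474 in ZH 10D-2DC, 3764 and 3980.3 in HF 4D-2DC, 837 and 1986 in HF 4D and 3128 and 2256 in ZH 4D-2DC. The Agglutinin gene, which encodes a lectin, reached 36396 and 29266 in ZH 10D-2DC, 7.59 and 3152 in HF 4D-2DC, 14.0 and 277 in HF 4D and 419 and 328 in ZH 4D-2DC. In all 3 the ZH 10D-2DC arrays stood above those of HF 4D-2DC, HF 4D and ZH 4D-2DC, with differences from ZH 4D-2DC of 5.51, 3.18 and 6.40. Of 6 genes named as inhibitors of proteases or amylases, 2 were called, and both are members. Of 11 storage protein genes 1, RA17, was called, with a difference of 3.21 ± 1.47 log2 units (standard error; limma, adjusted p = 0.758).

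Other members act in signalling or gene control. MFT2 is a relative of an Arabidopsis gene that links ABA to germination, and its signals were 8398 and 7794 in ZH 10D-2DC, 43.6 and 586 in HF 4D-2DC, 88.5 and 96.7 in HF 4D and 259 and 203 in ZH 4D-2DC. Its values in untreated ZH seed were 86.0 and 1.6 in ZH 4D, 254 and 187 in ZH 6D, 3837 and 7675 in ZH 10D and 7578 and 12519.7 in ZH 12D. The 2C-type protein phosphatase OsPP2C66 had 1257 and 2258 in ZH 10D-2DC, 57.2 and 87.8 in HF 4D-2DC, 46.2 and 72.5 in HF 4D and 121 and 200.4 in ZH 4D-2DC. ETR4, an ethylene receptor gene, had 2064 and 2585 in ZH 10D-2DC, 160.3 and 648 in HF 4D-2DC, 21.6 and 202 in HF 4D and 158 and 302 in ZH 4D-2DC. For each of these genes ZH 10D-2DC stood clear of the younger groups, and the differences from ZH 4D-2DC were 5.05, 3.31 and 3.31.

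The CCCH zinc finger gene OsC3H10 had 7408 and 5498 in ZH 10D-2DC, 173 and 410.4 in HF 4D-2DC, 22.3 and 66.7 in HF 4D and 131 and 446 in ZH 4D-2DC, and its difference from ZH 4D-2DC was 4.62 ± 0.71 log2 units (standard error; limma, adjusted p = 0.0638). SAP5, an A20/AN1 zinc finger gene of the stress-associated family, had 4754 and 2193 in ZH 10D-2DC, 297 and 305 in HF 4D-2DC, 122 and 120.4 in HF 4D and 199.8 and 216 in ZH 4D-2DC on the probe set of larger gap. YAB4, of the YABBY family of transcription factors, was dim, at 277 and 191 in ZH 10D-2DC, 106 and 87.6 in HF 4D-2DC, 43.8 and 43.4 in HF 4D and 12.4 and 52.9 in ZH 4D-2DC. All arrays of ZH 10D-2DC were above those of ZH 4D-2DC for these 3 genes. Of 50 CCCH genes on the array 3 were called higher and 2 lower, of 55 phosphatase 2C genes 4 higher, and of 24 genes of ABA synthesis and signalling, none of them a member, 1 higher. The median differences of the lists were -0.09, 0.26 and 0.23.

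Metabolic members included PPDK2, a pyruvate phosphate dikinase gene, with 11471 and 4925 in ZH 10D-2DC, 229 and 595 in HF 4D-2DC, 153 and 167 in HF 4D and 286 and 73.9 in ZH 4D-2DC. ICL, the isocitrate lyase of the glyoxylate cycle, had 1208 and 529 in ZH 10D-2DC, 36.5 and 73.8 in HF 4D-2DC, 146 and 7.32 in HF 4D and 196 and 22.2 in ZH 4D-2DC, and the allantoate amidohydrolase gene AAH had 6009.6 and 1668 in ZH 10D-2DC, 522 and 2436 in HF 4D-2DC, 791 and 2502 in HF 4D and 435 and 817 in ZH 4D-2DC. ICL and PPDK2 differed between the cold-treated ages without overlap, by 3.18 and 5.51. AAH did too, by 2.38, and its ZH 10D-2DC arrays lay below those of ZH 12D, which had 11192 and 10619. The alpha-amylase gene RAmy3E had signals of 1109.5 and 11884 in ZH 10D-2DC, 8.91 and 2254 in HF 4D-2DC, 36.5 and 324 in HF 4D and 9.34 and 659 in ZH 4D-2DC, with replicate 1 below replicate 2 in each of these groups. Of 27 beta-glucosidase genes 4 are members, and in the list 4 were higher and 1 lower, with a median difference of -0.30. None of 11 starch synthesis genes, 14 genes of sucrose transport and breakdown and 14 peroxidase and peroxiredoxin genes is a member, and the median differences of these lists were -0.07, 0.28 and -0.56.

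The 3 largest differences between the cold-treated ages were those of genes with an identifier only. LOC4350789 had the largest, 6.74 ± 1.30 log2 units (standard error; limma, adjusted p = 0.113), with signals of 76084 and 24331 in ZH 10D-2DC, 114 and 3414 in HF 4D-2DC, 116 and 471 in HF 4D and 695 and 212 in ZH 4D-2DC. LOC4324064 followed with 6.51 ± 1.05 log2 units (standard error; limma, adjusted p = 0.0638) and signals of 14318 and 13218 in ZH 10D-2DC, 47.8 and 839 in HF 4D-2DC, 107 and 47.6 in HF 4D and 233 and 76.0 in ZH 4D-2DC. LOC4342720, at 113586 and 25842 in ZH 10D-2DC and 499 and 774 in ZH 4D-2DC, differed by 6.41 ± 0.94 log2 units (standard error; limma, adjusted p = 0.0638). LOC4338883 had the largest gap of the members with a gene, 4.83, and its signal was 134540.0 and 39311 in ZH 10D-2DC, 298 and 3935 in HF 4D-2DC, 1084 and 776 in HF 4D and 1407 and 1005 in ZH 4D-2DC. It was followed in gap by LOC4324064, LOC4340902, LOC4342720, RBBI3.3, LOC4344574, Agglutinin, MFT2, LOC4325276 and LOC4345431, at 3.78 to 4.42. No role is given for the genes known by an identifier only.

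Counted over names, 56 member probe sets have a named gene, 54 of these were tested and 49 were called higher in ZH 10D-2DC than in ZH 4D-2DC. COPT1, CML8, SAT1, ATG8B and CIPK21 were tested and not called, with differences of 1.10, 0.80, 1.38, 1.56 and 1.56. COPT1, a copper transporter gene, had 2164 and 3123 in ZH 10D-2DC, 1221 and 883 in HF 4D-2DC, 390.2 and 234 in HF 4D and 687 and 2117 in ZH 4D-2DC, against 367 and 172 in ZH 4D, 248 and 327 in ZH 6D, 1683 and 3179 in ZH 10D and 1467 and 1377 in ZH 12D in the untreated series. In ZH 4D-2DC it was already above all early untreated arrays, as was the calmodulin-like gene CML8, with 1041 and 1036 in ZH 4D-2DC. For the 158 probe sets of genes without a name the median difference was 3.31, and for the 86 without a single gene it was 2.89.

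A second question was how far low temperature at 10 DAF left these probe sets from seed of the same age at normal temperature. The choice used the ZH 12D and ZH 10D arrays, so the following is a description. Over the 300 probe sets the median difference was -0.09 from ZH 12D and 0.38 from ZH 10D (ZH 10D-2DC first), against 0.09 and 0.08 over all probe sets. Both ZH 10D-2DC arrays lay above both ZH 12D arrays for 58 members and below for 54, against 14.2% and 12.1% of all probe sets. From ZH 10D the counts were 86 above and 29 below, against 12.5% and 9.43%. Within replicate 1 and replicate 2 the median difference from ZH 12D was 0.09 and -0.11, and that from ZH 10D was 0.70 and 0.0015. Without ZH 10D-2DC replicate 1 the medians from ZH 12D and ZH 10D were -0.31 and 0.12, and without its replicate 2 they were 0.22 and 0.75.

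Each member was also placed between its early and its late untreated ZH mean, with 0% at the early and 100% at the late mean on the log2 scale. The median place was 103% in ZH 10D-2DC, with quartiles of 88.4% and 116%. For 285 members both of its arrays were above all 4 early arrays, as for 8.13% of all probe sets. For 184 both were at or above the lowest late array, a limit for which no share of all probe sets was computed. The counterparts at the other end were 24 members with both arrays below all late arrays, where all 57194 probe sets gave 4.37%, and 48 members with both above them, against 5.58%.

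**Figure D4:**
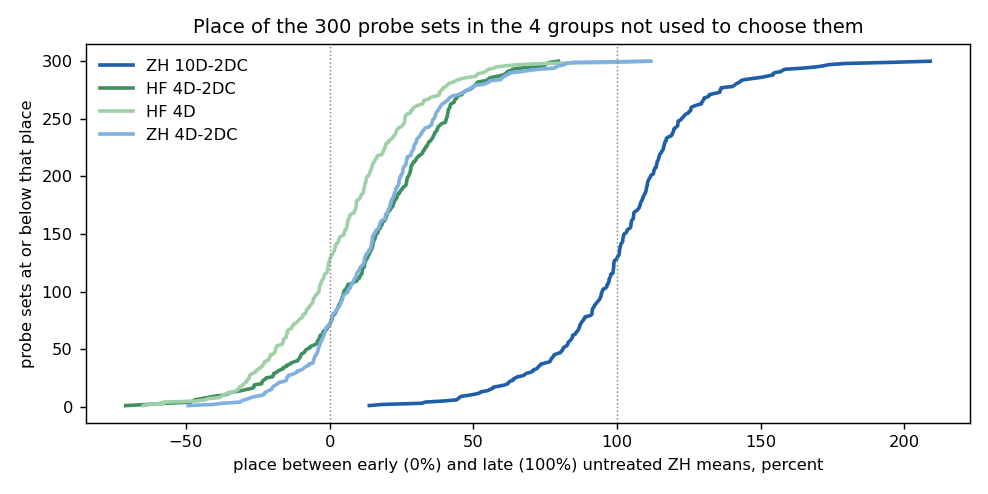
Cumulative number of the 300 probe sets by their place between the early (0%) and late (100%) untreated ZH means, for the 4 groups not used for the choice. The median place is 103% in ZH 10D-2DC, 16.6% in HF 4D-2DC, 5.09% in HF 4D and 15.7% in ZH 4D-2DC.

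Of the 3 small heat shock protein genes among the members, HSP18.6 and HSP16.9B stood far above late untreated seed in ZH 10D-2DC, and HSP17.9A, with a place of 119%, had 1 array within its range. Such chaperones bind unfolding proteins, and several are made in seeds without any heat. HSP18.6 had signals of 17934 and 18298 in ZH 10D-2DC, 583 and 1793 in HF 4D-2DC, 196 and 1009 in HF 4D and 791 and 3932 in ZH 4D-2DC on the brighter of its probe sets, and 297 and 116 in ZH 4D, 499 and 696 in ZH 6D, 4733 and 6208 in ZH 10D and 6890.2 and 2329 in ZH 12D in untreated ZH seed. HSP16.9B had 2267 and 5828 in ZH 10D-2DC, 128 and 170.4 in HF 4D-2DC, 96.4 and 124 in HF 4D and 58.5 and 754 in ZH 4D-2DC in the groups outside the choice and 140.2 and 51.7 in ZH 4D, 48.4 and 119 in ZH 6D, 1161 and 681 in ZH 10D and 994 and 446 in ZH 12D in the untreated series. For both genes the ZH 10D-2DC arrays exceeded all 14 others, and the places were 152% and 174%. Of 19 small heat shock protein genes on the array 17 were tested, and 11 were higher in ZH 10D-2DC than in ZH 4D-2DC and none lower, with a median of 2.33. Of the 19 genes 3 are members.

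LOC4331944 and LOC4332654 had the highest places of the members with a gene, 209% and 195%. LOC4331944 measured 4049 and 4468 in ZH 10D-2DC, 274 and 472 in HF 4D-2DC, 291 and 116 in HF 4D and 287 and 529 in ZH 4D-2DC, and 45.4 and 101 in ZH 4D, 92.7 and 87.8 in ZH 6D, 954 and 315 in ZH 10D and 903 and 384 in ZH 12D in untreated seed. LOC4332654 measured 4247 and 8998 in ZH 10D-2DC, 98.7 and 430.1 in HF 4D-2DC, 202 and 115 in HF 4D and 255 and 554 in ZH 4D-2DC, and LOC4349062, the fifth in this order, 7601 and 8853 in ZH 10D-2DC, 169.5 and 925 in HF 4D-2DC, 461 and 857 in HF 4D and 202 and 716 in ZH 4D-2DC. PM19L, RAB16B, RAB16C, OsC3H10, SAT1, a serine acetyltransferase gene, and PARP3, of the poly(ADP-ribose) polymerase family, were also above every late untreated array in ZH 10D-2DC. The lowest places belonged to LOC4342463, LOC4340742, LOC4342810, LOC4340079 and LOC9270212, at 13.8% to 45.1%. LOC4340079 was the brightest of them, with 1825 and 243 in ZH 10D-2DC and 2808 and 6090.0 in ZH 12D. No named gene was among the 24 members below all late arrays.

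In ZH seed that was cold-treated at 4 DAF, the members stayed near the level of early seed. The comparison shares arrays with the choice and was not tested. Against ZH 6D, of the same age, the median difference was -0.00055, and against ZH 4D, the start of the treatment, it was 1.12 (ZH 4D-2DC first), where all probe sets gave 0.02 and -0.03. Both ZH 4D-2DC arrays were above both ZH 6D arrays for 52 members and below for 58, or 17.3% and 19.3%, against 11.8% and 10.8% of all probe sets. Against ZH 4D the counts were 145 above and 6 below, where all gave 10.4% and 10.6%. The median place was 15.7%, 42 members were above all early arrays with both arrays, against 3.63% of all probe sets, and 1 was in the late range.

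Named members above all early arrays in ZH 4D-2DC were HSP18.6, COPT1, CML8, SAT1, MPK10, CIPK21, ADIPOR1 and STLP3. MPK10 and CIPK21 encode protein kinases of the MAP kinase and the calcium-sensor-linked families. SAT1 had 168 and 353 in ZH 4D-2DC and 14.1 and 111 in ZH 6D, and STLP3 110.0 and 38.9 and 5.5 and 14.9 in the same groups. LOC4325912, with 174 and 309.9 in ZH 4D-2DC and 9.37 and 7.56 in ZH 6D, and LOC4325399, with 129 and 220.1 and 63.4 and 68.0, were likewise among the 5 of highest place, as was LOC4331944. In contrast, all 3 RAB16-type dehydrin genes had both arrays within the range of early seed, as did PPDK2, RBBI3.3 and SAP5.

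HF seed was compared before and after the low temperature, in groups that the choice did not use but that differ in age as well. The median difference over the 300 members was 0.43 (HF 4D-2DC − HF 4D), against -0.23 over all probe sets. The replicates disagreed on it, with -0.04 within replicate 1 and 0.80 within replicate 2, where all probe sets gave -0.47 and 0.01. For 46 members both HF 4D-2DC arrays were above both HF 4D arrays, or 15.3% against 9.46% of all, and for 15 below, or 5% against 15%. With limma 15 of 288 tested members were higher and 3 lower at the threshold of the methods, against 0.647% and 1.64% of all probe sets. None passed the adjusted p of 0.05 (0% of all), the smallest being 0.9996. A block for replicate number gave 27 higher and 6 lower, where all probe sets gave 1.64% and 4.62%.

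The difference in HF rests on single arrays. Without HF 4D-2DC replicate 1 the median difference was 1.10, and without HF 4D-2DC replicate 2 it was -0.14. Without HF 4D replicate 1 it was 0.23, and without HF 4D replicate 2 it was 0.61. The summed signal of the embryo and aleurone markers likewise differed between the replicates, at 6365 and 49047 in HF 4D-2DC and 1662 and 12869 in HF 4D, replicate 1 before replicate 2. Of these 6 markers 5 are members, so that their sum is no separate measure. The green tissue markers moved as well, with summed signals of 20447 and 51788 in HF 4D-2DC and 82666 and 76139 in HF 4D, lower in HF 4D-2DC for 7 of 8 genes with a median difference of -1.43. The part of either marker list in the result was not tested.

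Among the members called, LOC4336815 differed most, by 3.76 ± 1.46 log2 units (standard error; limma, adjusted p = 1), with 439.8 and 7791 in HF 4D-2DC and 16.6 and 582 in HF 4D. Its groups overlapped, with replicate 2 above replicate 1 in both. LOC4339749 did not overlap, with 138 and 250.1 in HF 4D-2DC and 16.4 and 31.4 in HF 4D. OsC3H10 was likewise higher on both arrays, 173 and 410.4 in HF 4D-2DC and 22.3 and 66.7 in HF 4D, a difference of 2.33 ± 0.71 log2 units (standard error; limma, adjusted p = 1). COPT1, at 1221 and 883 in HF 4D-2DC and 390.2 and 234 in HF 4D, differed by 1.73 ± 0.68 log2 units (standard error; limma, adjusted p = 1). LOC4339696, LOC4334744, LOC4323923 and LOC4333949 were the others of the 5 largest, at 2.69 to 3.37. Osem and ETR4 were called too, with 3261 and 17571 in HF 4D-2DC and 446 and 3866 in HF 4D for Osem. For both genes the groups overlapped, with replicate 2 above replicate 1 in each group. Lower in HF 4D-2DC were OsCASPL1B1, of a family of Casparian strip-like membrane proteins, LOC4339684, and a probe set with no annotated gene, with differences of -2.07, -2.03 and -1.93.

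The cultivars were compared after the same treatment, again with arrays that the choice did not use. Over the 300 members HF 4D-2DC and ZH 4D-2DC differed by a median of 0.06 (HF 4D-2DC − ZH 4D-2DC), against -0.11 over all probe sets, with -0.29 within replicate 1 and 0.38 within replicate 2. Both HF arrays were above both ZH arrays for 18 members, or 6% against 8.08% of all, and below for 30, or 10% against 13.5%. At the threshold of the methods 2 members were higher in HF and 5 lower, against 0.309% and 0.991% of all probe sets tested. All 8 green tissue markers had the higher mean in HF here, with a median difference of 0.68, and their part in the result was not tested. No member passed an adjusted p of 0.05, where 0.00583% of all probe sets did in each direction and, with the block, 0.0291% in the direction of higher, and 7 members were past the unadjusted threshold. With the replicate block 4 were higher and 10 lower, where all gave 0.714% and 2.32%. Leaving out HF 4D-2DC replicate 1 gave a median difference of 0.58, and leaving out its replicate 2 gave -0.61. Without ZH 4D-2DC replicate 1 the median was -0.19, and without its replicate 2 it was 0.31.

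RA17 was the member with the largest difference between the cultivars. Its signals were 75.7 and 43.8 in HF 4D-2DC and 833 and 2.66 in HF 4D, against 7121 and 12895 in ZH 4D-2DC. In ZH 10D-2DC it had 174535 and 44898, and in the untreated ZH series 635 and 53.8 in ZH 4D, 7219 and 7939 in ZH 6D, 78124 and 48739.8 in ZH 10D and 131866 and 47731 in ZH 12D. The highest HF array thus stood well below the lower array of ZH 4D-2DC. The difference of HF 4D-2DC from ZH 4D-2DC was -7.02 ± 1.47 log2 units (standard error; limma, adjusted p = 0.492), and with the replicate block the adjusted p was 0.0738. The other storage protein genes did not share so low a level in HF. Of the 11 on the array 9 had the higher mean in HF 4D-2DC, with a median difference of 0.23 over the list. RA17 was the only gene of the list that was called.

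HSP17.9A went the other way, with 31714 and 21515 in ZH 10D-2DC, 9154 and 11937 in HF 4D-2DC, 4691 and 12064 in HF 4D and 1074 and 1989.6 in ZH 4D-2DC. In the untreated ZH series it had 923 and 1783 in ZH 4D, 3347 and 3003 in ZH 6D, 10713 and 21942 in ZH 10D and 21844 and 17213 in ZH 12D. All 4 HF arrays were above all 4 early untreated ZH arrays and above both ZH 4D-2DC arrays, and the difference of HF 4D-2DC from ZH 4D-2DC was 2.82 ± 0.67 log2 units (standard error; limma, adjusted p = 0.909). Most genes of its family did not share this direction. Over the 19 small heat shock protein genes on the array the median difference was -0.35 (HF 4D-2DC − ZH 4D-2DC), with 6 positive. Of the 17 tested, 1 was called higher and 1 lower. pinA, next to RBBI3.3 in the gene order, was the only member with both HF 4D arrays in the range of late ZH seed. Its signals were 4311 and 13602 in ZH 10D-2DC, 1067 and 5814 in HF 4D-2DC, 10092 and 2942 in HF 4D and 133 and 1606 in ZH 4D-2DC, and 62.9 and 1038 in ZH 4D, 1005 and 823 in ZH 6D, 2677 and 9507 in ZH 10D and 2809 and 4899 in ZH 12D in the untreated series, and HF 4D-2DC and ZH 4D-2DC overlapped. OsCASPL1B1 was lower in HF 4D-2DC, with 6.38 and 6.94 in HF 4D-2DC and 106 and 87.0 in ZH 4D-2DC and a difference of -2.31, and LOC4339749 was higher by 1.52. The remaining 3 members called, all lower in HF 4D-2DC, have no annotated gene.

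**Figure D5:**
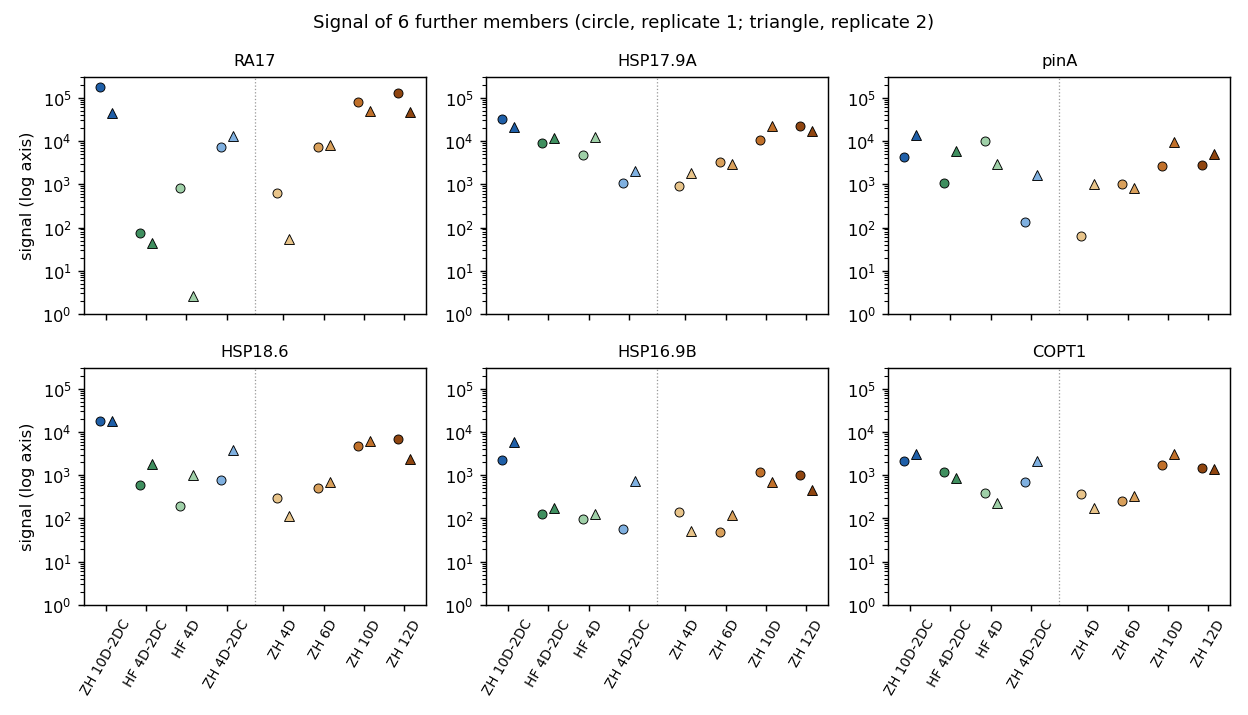
Signal (log axis) of 6 members on each array, replicate 1 as a circle and replicate 2 as a triangle, with the groups not used for the choice left of the dotted line. RA17 is at or below 833 on all 4 HF arrays, HSP17.9A lies between 4691 and 12064 on them, and HSP18.6 and HSP16.9B are highest in ZH 10D-2DC.

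Untreated HF seed of 4 DAF stood a little above ZH seed of that age on the members, by a median of 0.65 (HF 4D − ZH 4D), against 0.04 over all probe sets, with 0.35 within replicate 1 and 0.91 within replicate 2. ZH 4D was among the arrays chosen to be low, so this was not tested. The green tissue markers, of which all 8 had higher means in HF 4D, differed by a median of 1.47, and their part in the result was not tested. Both HF 4D arrays were above both ZH 4D arrays for 79 members and below for 6, where all probe sets gave 8.89% and 8.57%. The highest places in HF 4D were those of pinA, LOC4347081, LOC9270212, HSP17.9A and LOC4342463, at 57.9% to 111%. The median place was 5.09% in HF 4D. In HF 4D-2DC it was 16.6%, with -0.52% on replicate 1 and 37.5% on replicate 2. In HF 4D 23 members had both arrays above all early ZH arrays, and in HF 4D-2DC 41, where all probe sets gave 3.43% and 3.7%. Of these, 15 were above in both groups, among them HSP17.9A, pinA and CML8.

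Named members above all early arrays in HF 4D-2DC but not in HF 4D included RAB16C, RASI, SAP5, ICL, COPT1, MPK10, YAB4, CIPK21 and 4CL2, an enzyme of phenylpropanoid metabolism. RAB16C had 244 and 398 in HF 4D-2DC, RASI 3764 and 3980.3 and YAB4 106 and 87.6. For RAB16C and ICL the arrays of HF 4D-2DC and HF 4D overlapped, so that their place in this list is no clear difference between these groups. No member had both HF 4D-2DC arrays in the late range. The highest places there were those of LOC4328533, HSP17.9A, LOC4331944, LOC4325399 and pinA, at 74.3% to 79.6%.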

How the data were processed

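Per the labels, the authors extracted RNA from whole seeds with TRIzol, hybridised it to the GeneChip Rice Genome array and computed signals with MAS5, scaled to a 2% trimmed mean of 500. The deposited values are these linear intensity values, 1 per probe set and array, and no columns of other samples were present (0). The study's methods name GC-RMA and a test with limma at 2-fold and p under 0.05, without saying whether that p was adjusted (the unadjusted p was used here); the table used here holds MAS5 signals, so its values differ from those behind that analysis.

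From the deposited intensities, log2(signal + 16) was computed, and members were chosen by the gap described. The members and gene lists were chosen with earlier results of these data known. Differences between groups that the choice did not use were fitted with limma 3.58.1 in R 4.3.3, on all 16 arrays with 8 group means and empirical Bayes variances, after probe sets at or below the 40th percentile of mean level had been dropped, and p-values were adjusted over all probe sets tested by Benjamini-Hochberg. Fold changes are on the log2(signal + 16) scale, which understates those of dim probe sets. An exact permutation test of 2 arrays against 2 cannot go below a two-sided p of 0.33. Differences that share arrays with the choice got no test. Samples of the same replicate number deviated together in all 28 pairs of groups. The correlation was 0.216 to 0.639 over the probe sets that passed the filter, and -0.16 to 0.64 over the members among them. The number was therefore treated as pairing the samples and entered as a block in an alternative fit. The other alternatives were pseudocounts of 1 and 64, no filter and the 60th percentile, median centring, quantile normalization, a mean-variance trend, the compared arrays alone, and leaving out each array. The precision is limited by 2 arrays a group.

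Genes come from the platform annotation with RefSeq names (assembly ASM3414082v1). Named are members of 1 gene, namely those with the largest gap, the largest differences in each test, the brightest in each list, those of highest and lowest place, and transcription factors. Promoter motifs and sequences were not analysed here. The fit was tested on simulated data with independent noise on each array. That simulation held no replicate effect, so it does not cover the deviations shared by samples of the same replicate number. Python 3.11.15 with pandas 2.3.3, numpy 2.4.6 and matplotlib 3.10.9 was used for the remaining steps.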

Additional observations from a re-analysis of the deposited data

Results flagged for a closer look

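For 3 of the 300 members, every HF array moved down and every ZH array moved up over the 2 days at 14°C. STLP3 differed by -0.94 log2 units in HF (HF 4D-2DC − HF 4D) and by 1.48 in ZH (ZH 4D-2DC − ZH 4D). A pair of probe sets with no annotated gene differed by -0.97 in HF and 1.59 in ZH, and by -0.81 in HF and 0.79 in ZH. The difference between the cultivars was not tested, and the ZH 4D arrays were among those chosen to be low. Such opposite movement was seen for 1.0% of the members and for 1.38% of all probe sets (791).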

How the results depend on the processing

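Of 132 alternative values for the counts and medians, 22 moved, a count by over 1.5 times or a median by over 1 SD of the medians within the replicates. That SD is wide, and the 110 others include medians that changed sign. They also include medians that could not move. The block, the trend, dropping the filter and using the compared arrays alone leave the group differences as they are. None of the 268 alternative values for single members changed direction, while 20 lost the threshold. With the block or without the filter the difference stays the same, so only median centring and quantile normalization could have changed a direction. Members called in HF 4D-2DC − HF 4D, 18 in the fit reported, numbered 30 with quantile normalization, 33 with the replicate block, 43 with both and 8 with only the 4 arrays compared. Leaving out an array gave 5 (without HF 4D replicate 1) to 63 (without HF 4D replicate 2), and 55 without HF 4D-2DC replicate 1. In HF 4D-2DC − ZH 4D-2DC, 7 in the fit reported, the count was 13 with a pseudocount of 1, 4 with 64, 14 with the replicate block and 14 with quantile normalization and the block, and 9 to 25 with an array left out. In ZH 10D-2DC − ZH 4D-2DC it was 190 with median centring, against 243. The share of all probe sets is given above for the replicate block and not for the other alternative counts.

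Leaving out an array moved the median difference over 2.84 to 3.58 in ZH 10D-2DC − ZH 4D-2DC, -0.14 to 1.10 in HF 4D-2DC − HF 4D, -0.61 to 0.58 in HF 4D-2DC − ZH 4D-2DC, -0.31 to 0.22 in ZH 10D-2DC − ZH 12D, 0.12 to 0.75 in ZH 10D-2DC − ZH 10D, and -0.29 to 0.20 in ZH 4D-2DC − ZH 6D. The ZH 10D-2DC − ZH 12D median was -0.29 with median centring, and the ZH 4D-2DC − ZH 4D median was 0.79 with a pseudocount of 64. Members passing an adjusted p of 0.05 in ZH 10D-2DC − ZH 4D-2DC, none in the fit reported, numbered 61 with a pseudocount of 64, 23 with the 60th percentile filter, 27 with the trend, 4 with quantile normalization, 63 with the replicate block and 59 with quantile normalization and the block. Among these settings the share of all probe sets is given, above, only for the replicate block without other changes. The membership depended on the processing too. Of the 300 members, 278 were also chosen with a pseudocount of 1, 271 with 64, 266 after quantile normalization, 231 with the gap taken within each replicate number and 214 after median centring, where 281 probe sets passed in all. The causes were not tested. With 2 arrays a group and signals that differ between replicates, small differences were not detectable.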
